A study of Mus musculus with 18 samples.

Results

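Asb2, Lyst, Nav2, Nid1, Zbtb46, Ticam2 and Gadd45g are 7 mouse genes of unrelated families. They were selected on their FPKM in the BAFF 60mer libraries, for large differences between splenic B cells given BAFF 60mer and cells given no BAFF or BAFF 3mer. They are 7 of the 35275 genes in the expression table and 7 of the 11646 genes that averaged 1 or more FPKM over all libraries (fragments per kilobase of gene per M sequenced fragments, M for mega). All 7 also averaged 1 or more FPKM over the 12 libraries without BAFF 60mer. The choice used the BAFF 60mer values, so those differences are described here without a test. RNA was sequenced from pan B cells isolated from the spleen of C57BL/6 mice, a wild-type strain with no engineered allele named in the labels. Cells spent 1 h with 1000 ng/ml of either a control antibody or mBaffR-mFc, a reagent described as blocking the site through which BAFF binds its receptor BR3. BAFF 3mer or BAFF 60mer, assemblies of 3 or 60 subunits, was then added at 100 ng/ml for 4 h, or no BAFF was added. Each of the 6 groups had 3 libraries: control antibody without BAFF, with the 3mer or with the 60mer, and mBaffR-mFc without BAFF, with the 3mer or with the 60mer. The labels give no replicate numbers, no mouse age, and no statement of whether the 3 libraries came from separate animals, so every p-value here refers to library-to-library spread, which may be technical.

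BAFF is a cytokine of the TNF family that supports the survival of mature B cells. It binds BR3 (the BAFF receptor), TACI and BCMA, and receptor signalling leads to processing of the NF-kB precursor p100 and to activation of NF-kB target genes. The 7 genes belong to unrelated families: a receptor subunit of a ubiquitin ligase (Asb2), a large regulator of lysosome-related organelles (Lyst), a cytoskeletal guidance protein (Nav2), a basement membrane protein (Nid1), a transcription factor (Zbtb46), an adaptor of Toll-like receptors (Ticam2) and a stress-response protein that binds an upstream kinase of the p38 and JNK pathways (Gadd45g).

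RefSeq promoter windows (GRCm38.p6; 250 bases before and 50 bases after a transcription start) were matched by symbol for 6 of the 7 genes, in 8 windows, because Asb2 and Nav2 each had more than 1. Each window was searched on both strands for TGANTCA (AP-1), CACGTG (E-box) and 2 further patterns. The NF-kB pattern was 3 G, any 2 letters, 3 T and 2 C. The pattern for the composite site of ETS and IRF factors was 2 G, 2 A, any 2 letters, 1 G and 3 A. The starts of 4 windows lay well inside the gene as GENCODE M21 annotates it, by 17.6 kb in 1 of the 2 Asb2 windows, by 50.4 and 337 kb in the 2 of Nav2 and by 35.04 kb in the only window of Zbtb46. These 4 are not shown. The 250 bases before the start are shown for 4 genes, Asb2 and Gadd45g because they held a match and Nid1 and Lyst because they lie side by side in the genome. Each sequence runs 5′ to 3′ on the gene's own strand, with matched motifs in capitals.
Asb2, chr12:103356002-103356251, minus strand: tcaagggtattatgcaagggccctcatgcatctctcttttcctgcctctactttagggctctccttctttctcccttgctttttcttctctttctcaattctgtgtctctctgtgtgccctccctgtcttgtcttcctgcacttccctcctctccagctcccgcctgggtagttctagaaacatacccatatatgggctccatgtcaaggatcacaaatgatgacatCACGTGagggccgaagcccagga
Gadd45g, chr13:51846425-51846674, plus strand: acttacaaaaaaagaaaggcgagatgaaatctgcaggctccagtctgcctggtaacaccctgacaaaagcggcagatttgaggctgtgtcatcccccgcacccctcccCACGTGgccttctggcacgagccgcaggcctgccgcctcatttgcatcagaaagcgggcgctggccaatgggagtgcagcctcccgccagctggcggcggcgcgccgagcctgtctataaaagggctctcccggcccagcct
Nid1, chr13:13437352-13437601, plus strand: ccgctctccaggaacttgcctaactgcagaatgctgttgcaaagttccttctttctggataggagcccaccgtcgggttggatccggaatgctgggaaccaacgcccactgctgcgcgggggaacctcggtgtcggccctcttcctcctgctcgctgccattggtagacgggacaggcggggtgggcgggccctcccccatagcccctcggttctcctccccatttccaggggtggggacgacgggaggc
Lyst, chr13:13590159-13590408, plus strand: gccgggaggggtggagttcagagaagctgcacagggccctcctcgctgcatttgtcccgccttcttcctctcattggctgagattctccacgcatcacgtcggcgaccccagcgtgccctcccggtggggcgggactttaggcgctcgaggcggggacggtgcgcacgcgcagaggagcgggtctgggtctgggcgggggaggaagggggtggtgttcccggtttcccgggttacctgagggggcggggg
The CACGTG match began at position -23 from the start in Asb2 and at -142 in Gadd45g. The only other match was TGACTCA in the Zbtb46 window inside the gene. CACGTG was present in 7.15% and TGANTCA in 7.81% of all 32851 promoter windows of the same length. Neither the NF-kB pattern (1.63% of all windows) nor the composite pattern (2.72%) was found in any of the 8 windows. Other forms of these sites were not searched, so their absence is not shown. A match is a run of letters and not a measured binding site, and no match says only that these letters are not in this window. Among the 4 sequences, CpG pairs ran from 3 in Asb2 to 22 in Lyst, beside a median of 6 over all promoters. G and C made up 69.2% of the Lyst sequence, 64.4% of that of Nid1, 62% of that of Gadd45g and 50% of that of Asb2, beside a median of 52.4%.

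Library totals recovered from the FPKM steps ran from 12.2 to 25.4 M fragments (median 18.4). At that depth the 7 genes rested on 61 to 204 fragments per library for Asb2, 72 to 173 for Nav2, 75 to 329 for Gadd45g, 105 to 254 for Ticam2, 370 to 745 for Nid1, 436 to 814 for Zbtb46 and 2121 to 4155 for Lyst. The labelled cell type fitted its markers, since 10 of 10 B cell genes were measured with summed levels of 3063 to 3417 FPKM. NK cell genes (11 listed) summed to 162 to 182 FPKM in the 6 libraries without BAFF and to 146 to 161 FPKM in the 6 with BAFF 60mer. With BAFF 3mer the sum was 151 to 160 FPKM under control antibody and 166 to 183 FPKM under mBaffR-mFc, so the lower sum was not limited to BAFF 60mer. One split between libraries cuts across the groups. The summed level of 6 connective tissue genes (Bgn, Dcn, Sparc and the collagen genes Col1a1, Col1a2 and Col3a1) was 8.14 to 12.9 FPKM in 8 libraries, namely all 6 with BAFF 60mer and libraries 1 and 2 with control antibody and BAFF 3mer, and 0 to 0.131 FPKM in the other 10. The complement genes C1qa, C1qb and C1qc, which macrophages express, divided the libraries in the same way, at a sum of 2.55 to 3.90 FPKM in the 8 and 0.549 to 1.73 FPKM in the 10. The other 10 macrophage and monocyte genes listed did not, at 154 to 175 and 164 to 182 FPKM. BAFF 60mer and both sets of transcripts therefore cannot be told apart in comparisons with no BAFF or under mBaffR-mFc, and the comparison with BAFF 3mer under control antibody is given below with and without the libraries concerned. In bulk RNA, more transcript per cell and more cells of a type cannot be told apart either.

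Asb2 showed the largest difference of log2(FPKM + 1) between BAFF 60mer and no BAFF of the 7 under control antibody, while Nav2 had the larger ratio of means (2.53 against 2.37). It encodes a SOCS box protein that brings substrates such as filamins to a Cullin 5 ubiquitin ligase. GENCODE M21 places it at chr12:103321142-103356001 on the minus strand (GRCm38). Without BAFF its level was 2.04, 2.10 and 2.47 FPKM with control antibody and 1.94, 2.41 and 2.35 FPKM with mBaffR-mFc. With BAFF 3mer the level was 2.24, 1.66 and 2.28 FPKM with control antibody and 3.09, 2.13 and 3.06 FPKM with mBaffR-mFc. BAFF 60mer libraries held 5.57, 5.46 and 4.65 FPKM with control antibody and 6.54, 4.29 and 3.85 FPKM with mBaffR-mFc. The 6 BAFF 60mer libraries were all above the 12 others, the nearest values being 3.85 and 3.09 FPKM, while the 4 groups without BAFF 60mer overlapped each other. The mean with BAFF 60mer was 2.37 times that without BAFF under control antibody (5.23 ± 0.500 against 2.20 ± 0.234 FPKM, SD, n = 3 each) and 2.19 times under mBaffR-mFc (4.89 ± 1.45 against 2.24 ± 0.255 FPKM). An antisense gene that overlaps Asb2, Gm15523, was at 0 FPKM in all 6 libraries without BAFF and reached at most 0.745 FPKM in 1 library with control antibody and BAFF 60mer. Whether counting used the strand is not given in the sources used here, so reads of the 2 genes may not be separable.

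Other genes of the Asb2 family were looked up in the same fit. Of 6 other tested ASB genes, 0 rose and 2 fell with BAFF 60mer against no BAFF under control antibody, where 5.04% of all tested genes rose and 8.94% fell (limma, Benjamini-Hochberg adjusted p under 0.05), shares at which 6 genes would give few calls in either direction. Asb13, a substrate receptor of the same kind, was 41.5 ± 2.69 FPKM without BAFF and 32.1 ± 0.373 FPKM with BAFF 60mer, a log2 difference of -0.36 ± 0.057 (SE; limma adjusted p = 0.000852). Asb6 was 34.5 ± 1.92 and 29.9 ± 1.76 FPKM in the same groups, a log2 difference of -0.20 ± 0.063 (limma adjusted p = 0.0408). Of the 8 genes of the Cullin 5 ligase core, 0 rose and 0 fell in any of the 4 comparisons of BAFF 60mer with no BAFF or BAFF 3mer. The median log2 difference was 0.04 for that core and -0.04 for the 6 ASB genes, beside -0.02 over all tested genes.

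Lyst, the gene affected in Chediak-Higashi syndrome and in beige mice, encodes a very large BEACH domain protein that controls the size of lysosome-related organelles. Its span is chr13:13590397-13778803, plus strand. Without BAFF, Lyst stood at 9.87, 9.9995 and 11.9 FPKM with control antibody and at 12.4, 12.7 and 11.2 FPKM with mBaffR-mFc. Under BAFF 3mer the values were 12.2, 13.2 and 11.3 FPKM with control antibody and 13.1, 11.5 and 11.4 FPKM with mBaffR-mFc. Under BAFF 60mer they were 21.7, 20.5 and 19.6 FPKM with control antibody and 21.9, 19.5 and 16.3 FPKM with mBaffR-mFc. Here too all 6 BAFF 60mer libraries lay above the 12 others, whose highest value was 13.2 FPKM, and neighbouring groups without BAFF 60mer overlapped. The ratio of means to no BAFF was 1.95 under control antibody and 1.59 under mBaffR-mFc. Lyst rested on 2121 or more fragments in every library, so its counting error was at most 2.17%, while its spread within groups had a median coefficient of variation of 7.84%.

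BEACH genes other than Lyst moved in both directions. Among 6 tested, 4 rose (Lrba, Nbeal1, Wdfy4 and Nsmaf) and 1 fell (Wdr81) with BAFF 60mer against no BAFF under control antibody. Over all tested genes 5.04% rose and 8.94% fell there. The median log2 difference of the 6 was 0.29, beside -0.02 over all tested genes. Wdfy4, a BEACH protein linked to cross-presentation in dendritic cells, went from 116 ± 12.9 to 143 ± 1.60 FPKM (log2 difference 0.30 ± 0.060, limma adjusted p = 0.00406). Lrba, whose loss in people leads to immune deficiency, went from 7.68 ± 0.783 to 9.60 ± 0.433 FPKM (log2 difference 0.29 ± 0.067, limma adjusted p = 0.0099). Under mBaffR-mFc only Nsmaf passed the test, where 1.46% of all tested genes rose and 3.37% fell. None of these 6 genes reached the 0.90 ± 0.095 log2 difference of Lyst, but Lyst was chosen for a large rise. Of 13 tested genes of lysosome-related organelle formation, 0 rose and 1 fell under control antibody, beside the same shares of 5.04% and 8.94%. The 1 was Hps3, a subunit of a complex that builds melanosomes and platelet granules (log2 difference -0.19 ± 0.049, limma adjusted p = 0.0202). The list's median was -0.12.

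Nav2 encodes neuron navigator 2, a protein that binds microtubules and acts in cell migration and neurite growth. It was the lowest of the 7 genes and extends over chr7:48908716-49610090, plus strand. Libraries without BAFF held 1.09, 1.11 and 1.37 FPKM with control antibody and 1.23, 1.66 and 1.21 FPKM with mBaffR-mFc. BAFF 3mer gave 1.63, 1.29 and 1.41 FPKM with control antibody and 1.39, 1.55 and 1.83 FPKM with mBaffR-mFc. BAFF 60mer gave 3.19, 3.15 and 2.66 FPKM with control antibody but 2.28, 2.43 and 1.68 FPKM with mBaffR-mFc. The 3 libraries with control antibody and BAFF 60mer were above all 15 others. Those with mBaffR-mFc and BAFF 60mer were above their own group without BAFF, by little (1.68 against 1.66 FPKM), and overlapped BAFF 3mer. The ratio of means to no BAFF was 2.53 under control antibody and 1.56 under mBaffR-mFc. With 72 to 173 fragments per library, the counting error alone was 7.60% to 11.8% of a Nav2 value. Of the 3 navigator genes, Nav2 was the only 1 with a mean of at least 1 FPKM.

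Nid1 encodes nidogen-1, which joins laminin and type IV collagen in basement membranes. Its span is chr13:13437551-13512269, plus strand. Without BAFF it measured 3.53, 3.86 and 3.97 FPKM with control antibody and 3.73, 4.00 and 3.92 FPKM with mBaffR-mFc. With BAFF 3mer it measured 3.70, 3.60 and 4.41 FPKM with control antibody and 3.70, 3.37 and 3.59 FPKM with mBaffR-mFc. With BAFF 60mer it measured 6.34, 7.07 and 6.62 FPKM with control antibody and 6.56, 5.87 and 5.74 FPKM with mBaffR-mFc. The 6 BAFF 60mer libraries began at 5.74 FPKM and the 12 others ended at 4.41 FPKM. The ratio of means to no BAFF was 1.76 under control antibody and 1.56 under mBaffR-mFc. Because fibroblasts and vessel cells also make nidogen-1, the connective tissue transcripts were set beside it. In the BAFF 3mer libraries with control antibody, Nid1 was 3.70 and 3.60 FPKM in the 2 libraries that carried these transcripts and 4.41 FPKM in the 1 that did not, a comparison of 2 libraries with 1. All 6 BAFF 60mer libraries, in which Nid1 was highest, also carried them. Of 23 basement membrane genes listed, 3 besides Nid1 reached a mean of 1 FPKM. Of these, 0 rose and 0 fell with BAFF 60mer against no BAFF under control antibody, where 5.04% of all tested genes rose and 8.94% fell. Lamc1, a laminin chain, fell under mBaffR-mFc, where 3.37% of all tested genes fell. Endothelial genes summed to 58.3 to 75.7 FPKM over all libraries, nearly all of it Pecam1, which B cells also express. The other 10 endothelial genes together summed to 1.89 to 3.18 FPKM without BAFF, to 2.09 to 2.70 FPKM with BAFF 3mer and to 2.19 to 3.30 FPKM with BAFF 60mer. Cdh5, the cadherin of endothelial junctions, averaged 0.0894 FPKM without BAFF and 0.265 FPKM with BAFF 60mer under control antibody, and 0.103 and 0.219 FPKM under mBaffR-mFc. Egfl7, a secreted endothelial protein, averaged 0.374 and 0.686 FPKM under control antibody and 0.471 and 0.484 FPKM under mBaffR-mFc. Plvap went the other way, at 0.357 and 0.283 FPKM under control antibody and 0.392 and 0.209 FPKM under mBaffR-mFc. Kdr, Vwf and Tie1 averaged lower with BAFF 60mer under control antibody (Kdr 0.106 and 0.0524 FPKM) and higher under mBaffR-mFc (Kdr 0.0820 and 0.105 FPKM). Stab2 and Tek averaged higher under control antibody and lower under mBaffR-mFc. Emcn was above 0 in 4 of the 8 libraries with connective tissue transcripts and in 0 of the other 10, at no more than 0.0421 FPKM, and Cldn5 in 2 of each set. The part of these cells in the Nid1 values was not tested.

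Zbtb46 encodes a BTB zinc finger repressor best known as a marker of classical dendritic cells and endothelium. GENCODE M21 places it at chr2:181387762-181459426, minus strand. Without BAFF, 10.3, 9.28 and 10.4 FPKM were measured with control antibody and 10.6, 9.33 and 8.68 FPKM with mBaffR-mFc. With BAFF 3mer, 11.03, 10.2 and 9.27 FPKM were measured with control antibody and 10.9, 9.71 and 9.37 FPKM with mBaffR-mFc. With BAFF 60mer, 16.9, 15.9 and 14.7 FPKM were measured with control antibody and 18.05, 15.2 and 14.2 FPKM with mBaffR-mFc. All 6 BAFF 60mer libraries were above the 12 others, and the ratio to no BAFF was nearly equal under control antibody (1.59) and mBaffR-mFc (1.66). The dendritic cell list (11 genes, 4 of them with a mean of at least 1 FPKM) summed to 556 to 594 FPKM in the 12 libraries without BAFF 60mer and to 611 to 653 FPKM in the 6 with it. Nearly all of that sum was Ccr7 (425 to 503 FPKM) and Wdfy4 (107 to 150 FPKM), which B cells also express. Of the rest of the list, Flt3 was 1.14 to 1.93 FPKM over all libraries. Cd209a, Siglech, Clec10a and Itgae were at most 0.730 FPKM, and Xcr1, Clec9a and Batf3 at most 0.271 FPKM. Batf3 averaged 0.0471 FPKM without BAFF and 0.165 FPKM with BAFF 60mer under control antibody, and 0.109 and 0.146 FPKM under mBaffR-mFc. Clec9a averaged 0.0790 and 0.125 FPKM under control antibody, and 0.166 and 0.0932 FPKM under mBaffR-mFc. Itgax, the integrin CD11c, averaged 2.15 FPKM without BAFF, 1.66 FPKM with BAFF 3mer and 1.73 FPKM with BAFF 60mer under control antibody. Under mBaffR-mFc it averaged 2.20, 2.17 and 1.98 FPKM in the same order. Endothelial genes, Cdh5 among them, are given with Nid1 above. The part of dendritic and endothelial cells in the Zbtb46 values was not tested.

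Other BTB zinc finger genes passed the test about as often as all genes did. Of 40 tested, 3 rose (Zbtb20, Zbtb37 and Zbtb41) and 3 fell (Zbtb7b, Zbtb42 and Zbtb48) with BAFF 60mer against no BAFF under control antibody, beside 5.04% higher and 8.94% lower over all tested genes, and their median log2 difference was 0.01. Zbtb20, a repressor needed for long-lived plasma cells, went from 39.3 ± 4.80 to 51.4 ± 4.04 FPKM (log2 difference 0.38 ± 0.11, limma adjusted p = 0.0297). Under mBaffR-mFc, 1 of the 40 rose (Bcl6, the repressor that directs germinal centre B cells) and 1 fell (Zbtb42), beside 1.46% and 3.37% of all tested genes.

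Ticam2 encodes TRAM, the adaptor that links Toll-like receptor 4 to the adaptor TRIF. It lies on chromosome 18, minus strand. Its values without BAFF were 2.93, 2.96 and 3.08 FPKM with control antibody and 3.42, 3.28 and 2.73 FPKM with mBaffR-mFc. Its values with BAFF 3mer were 3.35, 3.44 and 3.82 FPKM with control antibody and 3.54, 3.73 and 3.19 FPKM with mBaffR-mFc. Its values with BAFF 60mer were 6.28, 5.42 and 5.68 FPKM with control antibody and 5.89, 5.68 and 5.44 FPKM with mBaffR-mFc. The lowest BAFF 60mer library (5.42 FPKM) was well above the highest of the 12 others (3.82 FPKM), and the ratio to no BAFF was 1.94 under control antibody and 1.81 under mBaffR-mFc. Ticam2 overlaps Tmed7, a cargo receptor gene of the secretory pathway on the same strand, so the authors' counting could have divided shared reads between them. Tmed7 averaged 44.8 ± 2.11 FPKM without BAFF and 45.3 ± 0.265 FPKM with BAFF 60mer under control antibody, a log2 difference of 0.02 ± 0.045 that did not pass the test (limma adjusted p = 0.83).

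In Toll-like receptor signalling, 27 other genes were tested with BAFF 60mer against no BAFF under control antibody. Tlr9, the receptor for CpG DNA, and Traf3, which restrains the non-canonical NF-kB pathway, rose, while Cd14, Irak2 and Irf3 fell. These 2 and 3 of 27 are near the shares over all tested genes, 5.04% higher and 8.94% lower. The log2 differences were 0.18 ± 0.047 for Tlr9, 0.27 ± 0.051 for Traf3, -0.28 ± 0.086 for Cd14 (a co-receptor of Toll-like receptor 4) and -0.13 ± 0.040 for Irak2 (a signalling kinase of the pathway), and the list's median was -0.05. Under mBaffR-mFc, 0 of the 27 rose and 1 fell (Tlr4), where 1.46% and 3.37% of all tested genes did.

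Gadd45g had another pattern. It encodes a small stress-response protein that activates the kinase MTK1 (MEKK4) above p38 and JNK, and it is a short gene at chr13:51846678-51848468, plus strand. Without BAFF it stood at 6.25, 7.28 and 5.68 FPKM with control antibody and at 6.29, 8.12 and 6.18 FPKM with mBaffR-mFc. BAFF 3mer libraries held 6.50, 5.78 and 6.29 FPKM with control antibody and 6.03, 7.64 and 5.73 FPKM with mBaffR-mFc. BAFF 60mer libraries held 6.34, 7.46 and 8.62 FPKM with control antibody and 9.39, 15.1 and 15.9 FPKM with mBaffR-mFc. The 3 libraries with mBaffR-mFc and BAFF 60mer were above all 15 others, whereas those with control antibody and BAFF 60mer overlapped their groups without BAFF and with BAFF 3mer. The ratio to no BAFF was 1.96 under mBaffR-mFc (13.5 ± 3.54 against 6.87 ± 1.09 FPKM, SD, n = 3 each) and 1.17 under control antibody (7.48 ± 1.14 against 6.40 ± 0.810 FPKM). Of the 7 genes it was the only 1 whose BAFF 60mer libraries overlapped those without BAFF under control antibody.

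Of the 13 other tested genes of the GADD45 family and the p38 pathway, 0 rose and 2 fell with BAFF 60mer against no BAFF, under control antibody and under mBaffR-mFc alike, and the 2 were Gadd45a and Map2k6 in each case. Over all tested genes 5.04% rose and 8.94% fell under control antibody, and 1.46% and 3.37% under mBaffR-mFc. Gadd45a, the DNA damage responsive member of the family, went from 19.7 ± 2.23 to 15.3 ± 0.758 FPKM under control antibody (log2 difference -0.34 ± 0.088, limma adjusted p = 0.0183), opposite in sign to Gadd45g. Map2k6, a kinase that activates p38, went from 2.29 ± 0.252 to 1.61 ± 0.209 FPKM (log2 difference -0.33 ± 0.10, limma adjusted p = 0.0369).

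**Figure D1:**
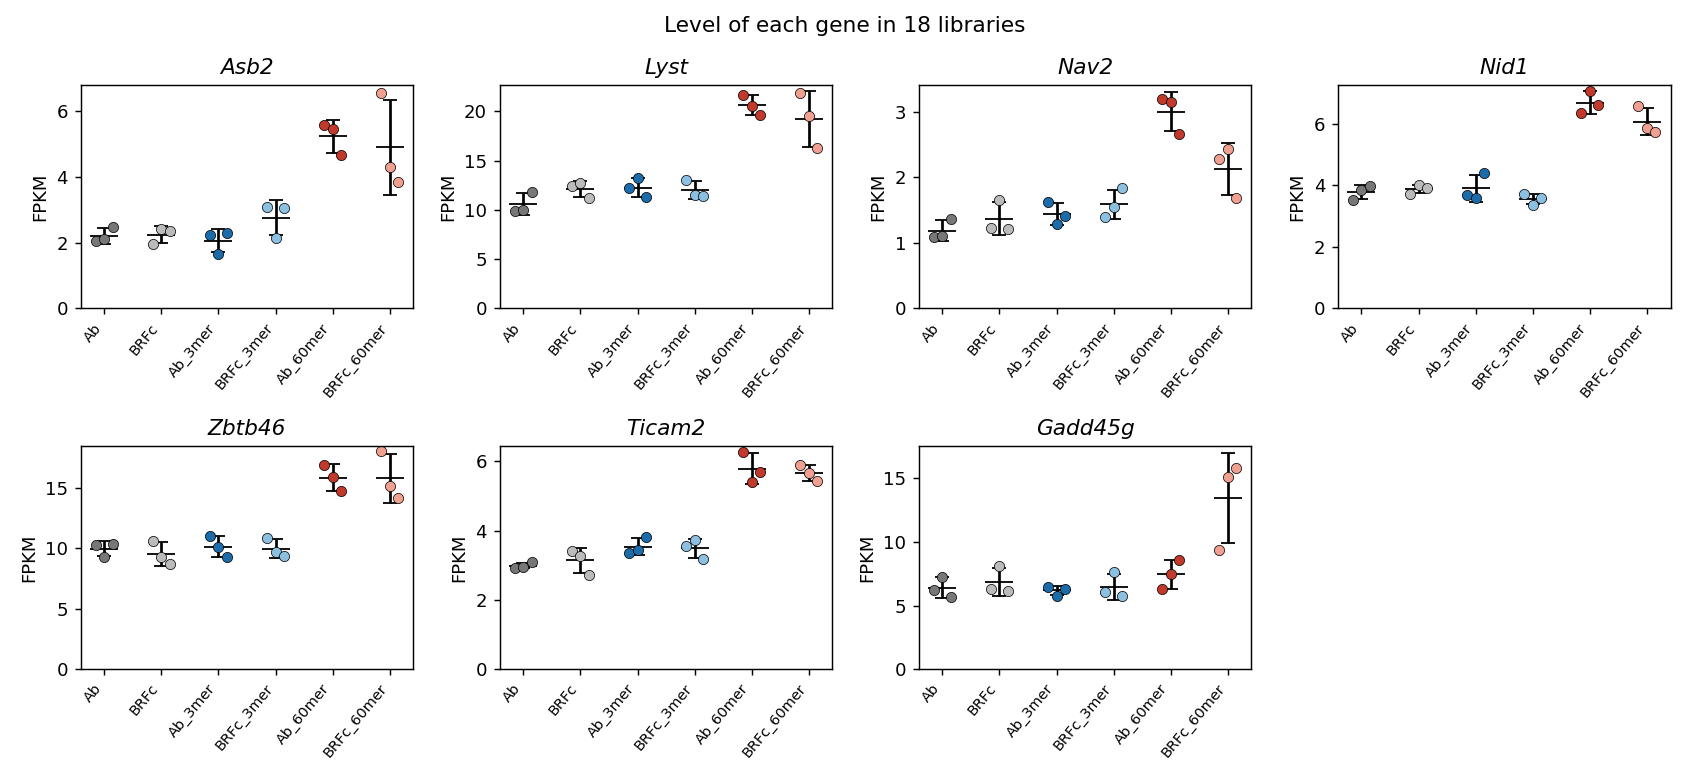
Level in FPKM (y axis) of each of the 7 genes in 18 libraries, by group (x axis: Ab, control antibody; BRFc, mBaffR-mFc; 3mer and 60mer, the BAFF form added). Points are libraries, and bars are the mean and SD of 3. In Asb2, Lyst, Nid1, Zbtb46 and Ticam2 the 6 BAFF 60mer libraries lie above the other 12, and in Gadd45g only those with mBaffR-mFc stand apart.

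Set side by side, the 7 genes gave the following order of log2 differences between BAFF 60mer and no BAFF under control antibody: Asb2 0.96 ± 0.15, Lyst 0.90 ± 0.095, Nav2 0.87 ± 0.12, Ticam2 0.77 ± 0.082, Nid1 0.68 ± 0.079, Zbtb46 0.62 ± 0.093 and Gadd45g 0.19 ± 0.16 (difference of log2(FPKM + 1) with SE). From Asb2 down to Zbtb46 neighbours in that order overlapped within their SE, and Gadd45g stood apart. Under mBaffR-mFc the order was Gadd45g 0.85, Asb2 0.84, Ticam2 0.69, Zbtb46 0.67, Lyst 0.62, Nid1 0.53 and Nav2 0.40. The first places depend on the 1 FPKM that was added. With 0.1 FPKM added instead, Nav2 (1.27) came before Asb2 (1.21) under control antibody. Asb2 (1.06) then came before Gadd45g (0.93) under mBaffR-mFc. Against BAFF 3mer the differences ran from 0.23 (Gadd45g) to 1.03 (Asb2) under control antibody and from 0.27 (Nav2) to 0.93 (Gadd45g) under mBaffR-mFc. Comparisons with no BAFF and with BAFF 3mer share the BAFF 60mer libraries, so they are not separate evidence.

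The rule set no numeric threshold. Ranked among the 11646 tested genes by rise over no BAFF under control antibody, Asb2 was at 29, Lyst at 39, Nav2 at 43, Ticam2 at 73, Nid1 at 104, Zbtb46 at 139 and Gadd45g at 1153. Under mBaffR-mFc the ranks were 15 for Gadd45g, 16 for Asb2, 28 for Ticam2, 30 for Zbtb46, 42 for Lyst, 60 for Nid1 and 157 for Nav2. All libraries of the group with BAFF 60mer exceeded all without BAFF for 6 of the 7 genes under control antibody, where 13.5% of all tested genes did so, and for 7 of 7 under mBaffR-mFc, where 7.13% did. Against BAFF 3mer the count was 6 of 7 in each pretreatment, beside 11.8% of all genes under control antibody and 10.1% under mBaffR-mFc. For 5 of the 7 genes all 6 BAFF 60mer libraries exceeded the 12 others, as they did for 1.86% of all tested genes. These counts follow from how the genes were chosen.

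**Figure D2:**
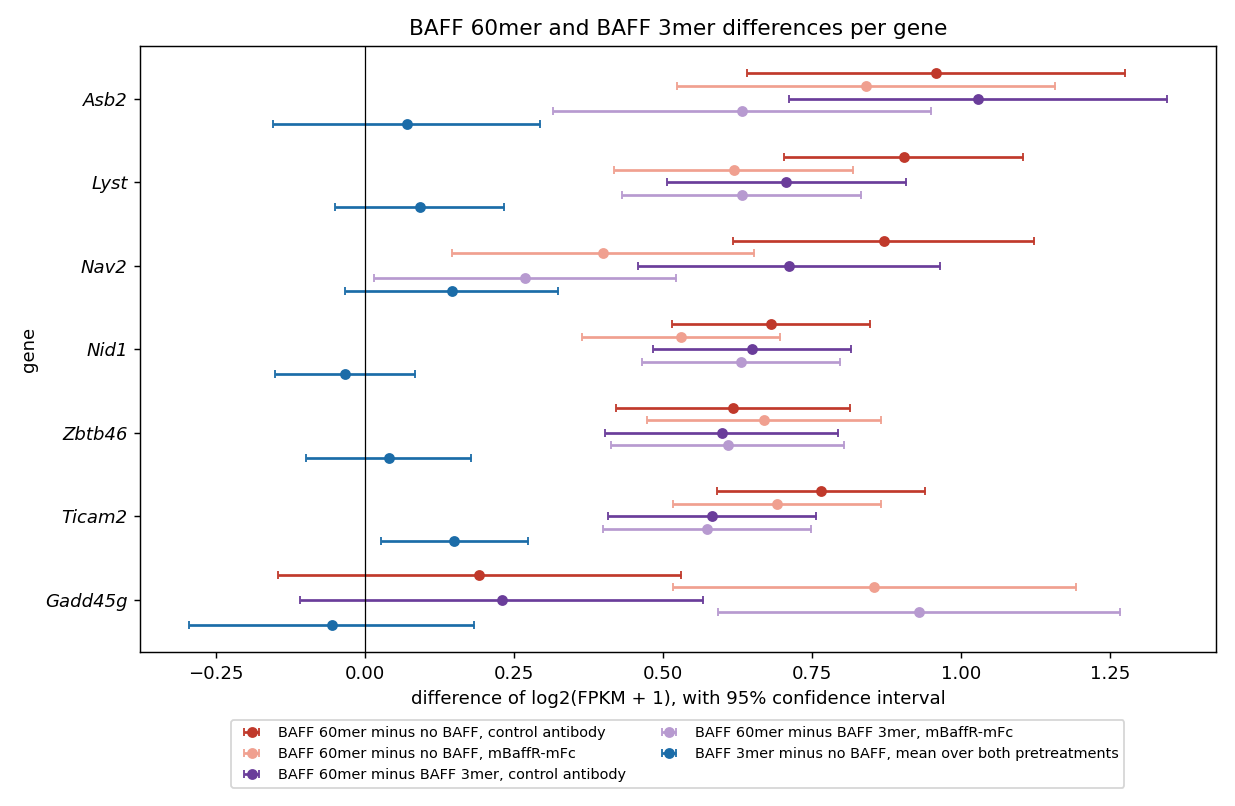
Difference of log2(FPKM + 1) (x axis) with its 95% confidence interval for each gene (y axis) in 5 comparisons, by colour. The BAFF 60mer differences are all to the right of 0 in their estimate, with intervals of Gadd45g under control antibody reaching below 0, and the BAFF 3mer differences lie near 0.

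BAFF 3mer against no BAFF was not used in choosing the genes and was tested over both pretreatments together. None of the 7 passed, and neither did any of the 11646 genes tested (0.00% called by limma; 524 genes had an unadjusted p under 0.05). The log2 differences ran from -0.06 ± 0.11 (Gadd45g) to 0.15 ± 0.058 (Ticam2). Ticam2 had the largest difference (limma adjusted p = 0.958), with a 95% interval of 0.03 to 0.27. Its 3 libraries with control antibody and BAFF 3mer (3.35 to 3.82 FPKM) were all above the 3 without BAFF (2.93 to 3.08 FPKM), while under mBaffR-mFc the 2 groups overlapped. The intervals for Nav2 (-0.03 to 0.32) and Lyst (-0.05 to 0.23) included 0. For Nav2 the interval overlapped that of BAFF 60mer against no BAFF under mBaffR-mFc (0.15 to 0.65). For Asb2 the interval was -0.15 to 0.29, for Zbtb46 -0.10 to 0.18 and for Nid1 -0.15 to 0.08. Nid1 was the only other gene with groups that did not overlap, since its BAFF 3mer libraries with mBaffR-mFc (3.37 to 3.70 FPKM) were below those without BAFF (3.73 to 4.00 FPKM). The share of all tested genes that separated in this way was not counted, so neither separation can be called particular to Ticam2 or Nid1.

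The pretreatment alone made no difference that passed. In the absence of BAFF, none of the 7 genes passed between mBaffR-mFc and control antibody, all 7 overlapped, and 0.00% of all tested genes were called (limma; 688 with an unadjusted p under 0.05). Lyst had the largest difference there, a log2 difference of 0.18 ± 0.095 (95% interval -0.02 to 0.38, limma adjusted p = 0.848). With BAFF 3mer the same comparison also called 0.00% of genes (452 with an unadjusted p under 0.05), and Asb2 had the largest difference of the 7, 0.29 ± 0.15 (95% interval -0.02 to 0.61, limma adjusted p = 0.998).

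With BAFF 60mer, 2 of the 7 genes separated by pretreatment, in opposite directions. The BAFF 60mer libraries had chosen the 7 genes, and Gadd45g ranked high only under mBaffR-mFc, so this comparison is described for them without a test. Gadd45g was higher with mBaffR-mFc than with control antibody in all libraries (9.39 to 15.9 against 6.34 to 8.62 FPKM), as were 4.10% of all tested genes. Its log2 difference was 0.75 ± 0.16. With 1 library left out it ran from 0.62 to 0.97, and the highest value (0.97 ± 0.13) came without library 1 of mBaffR-mFc and BAFF 60mer. Nav2 was lower with mBaffR-mFc in all libraries (1.68 to 2.43 against 2.66 to 3.19 FPKM), as were 4.31% of all tested genes, at a log2 difference of -0.36 ± 0.12. The other 5 genes overlapped, with log2 differences from -0.12 (Nid1) to -0.01 (Zbtb46). Over all 11646 genes, 3 passed the limma test in this comparison (0.0258%), and they were B3gnt7, Spp1 and Pkib, named after their values were seen, each higher with mBaffR-mFc.

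Within the BAFF 60mer groups the 7 genes did not all vary together. In each pretreatment, library 1 had the highest level of Asb2, Lyst, Zbtb46 and Ticam2 and the lowest level of Gadd45g of its 3 libraries. Over the 6 groups, library 1 had the highest Zbtb46 in 5, and library 3 the lowest Zbtb46 in 5 and the lowest Lyst in 5. The median-of-ratios size factor of the FPKM, 0.979 to 1.02 over all libraries, was lowest in library 1 and highest in library 3 in 6 of 6 groups. The numbers follow the order of deposition only, and whether they tie libraries across groups is not given in the sources used here and was not fitted. Over all 18 libraries the Pearson correlation of log2(FPKM + 1) was 0.84 to 0.95 among the 15 pairs of the 6 genes without Gadd45g, and 0.35 to 0.62 between Gadd45g and each of them. After subtracting group means, Gadd45g correlated at -0.69 with Asb2, at -0.62 with Zbtb46 and at -0.58 with Lyst, while the pairs without Gadd45g ran from -0.02 to 0.76. These values describe 18 libraries that share depth and the connective tissue split, and carry no test.

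The spread between libraries was compared with counting error. The median coefficient of variation within groups was 15.5% for Gadd45g, 14.2% for Asb2 and 13.7% for Nav2, beside median counting errors of 8.92%, 9.93% and 9.43%. For Ticam2 the spread between libraries (7.30%) was no larger than counting error (8.22%), and for Nid1 it was close to it (5.76% against 4.54%). Zbtb46 and Lyst varied more than their counts alone give (8.35% against 4.27%, and 7.84% against 1.84%).

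Nid1 and Lyst are next to each other on chromosome 13, on the same strand, with 78.1 kb between the end of Nid1 and the start of Lyst. Gpr137b, a lysosomal membrane protein gene before Nid1, fell with BAFF 60mer under control antibody (log2 difference -0.25 ± 0.075, limma adjusted p = 0.0358). Gng4, a G protein subunit gene that begins 5256 bases after Lyst, differed by -0.03 ± 0.082 (limma adjusted p = 0.833), and B3galnt2, a glycosyltransferase gene, by -0.07 ± 0.062 (limma adjusted p = 0.505). Under mBaffR-mFc the log2 differences were -0.23 for Gpr137b, 0.12 for Gng4 and 0.00 for B3galnt2, and none of the 3 passed.

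**Figure D3:**
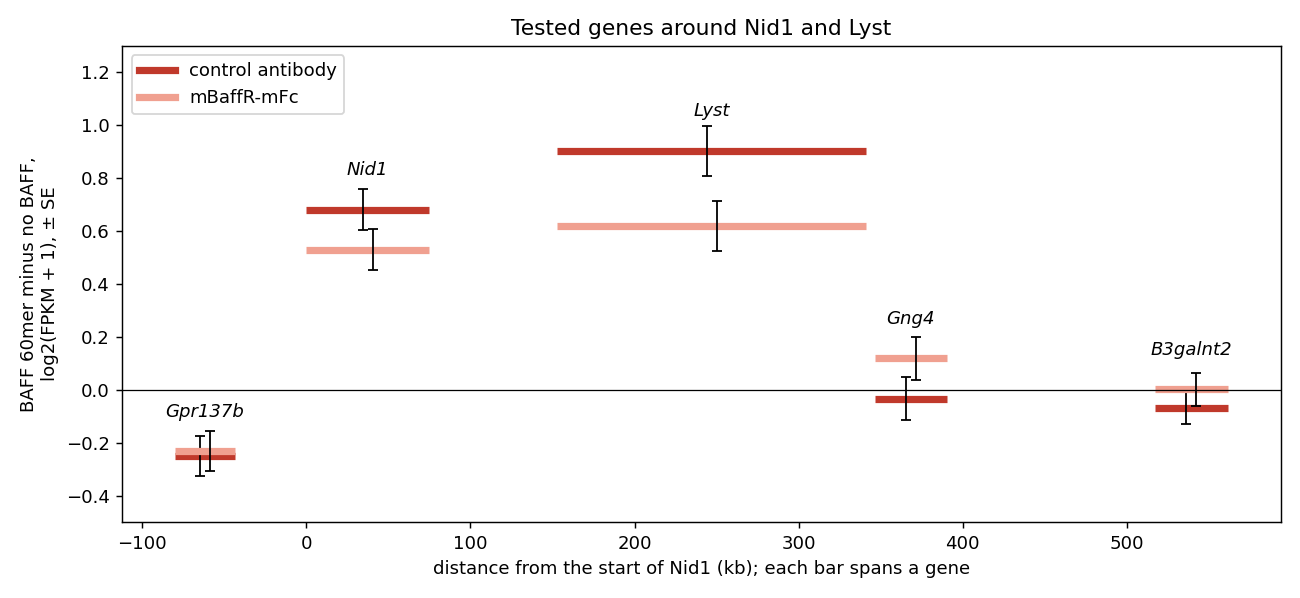
Difference of log2(FPKM + 1) between BAFF 60mer and no BAFF (y axis, with SE) for the tested genes around Nid1 and Lyst, each drawn as a bar over its span in kb from the start of Nid1 (x axis), for both pretreatments. Nid1 and Lyst lie between 0.53 and 0.90, while Gpr137b, Gng4 and B3galnt2 lie between -0.25 and 0.12.

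Around all 7 genes, 34 other tested genes lay within 200 kb. With BAFF 60mer against no BAFF, 0 of the 34 rose and 4 fell under control antibody (Gpr137b, and Arfrp1, Slc2a4rg-ps and Samd10 near Zbtb46), and 1 rose and 0 fell under mBaffR-mFc (Tpd52l2, near Zbtb46). Over all tested genes 5.04% rose and 8.94% fell under control antibody, and 1.46% and 3.37% under mBaffR-mFc, so these counts were near the shares of all genes. Their median log2 difference was -0.02 under control antibody, as over all tested genes. Slc2a4rg-ps ends 176 bases from the end of Zbtb46 on the opposite strand, and its mean fell from 16.8 ± 1.53 to 13.5 ± 1.57 FPKM under control antibody (log2 difference -0.29 ± 0.085, limma adjusted p = 0.0294) in the libraries in which Zbtb46 was higher. Against BAFF 3mer, 0 of the 34 rose or fell under control antibody, where 1.80% of all tested genes rose and 3.01% fell, and 0 rose and 2 fell under mBaffR-mFc (Ifi27l2a, an interferon-induced gene near Asb2, and Arfrp1), where 2.05% rose and 3.11% fell.

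**Figure D4:**
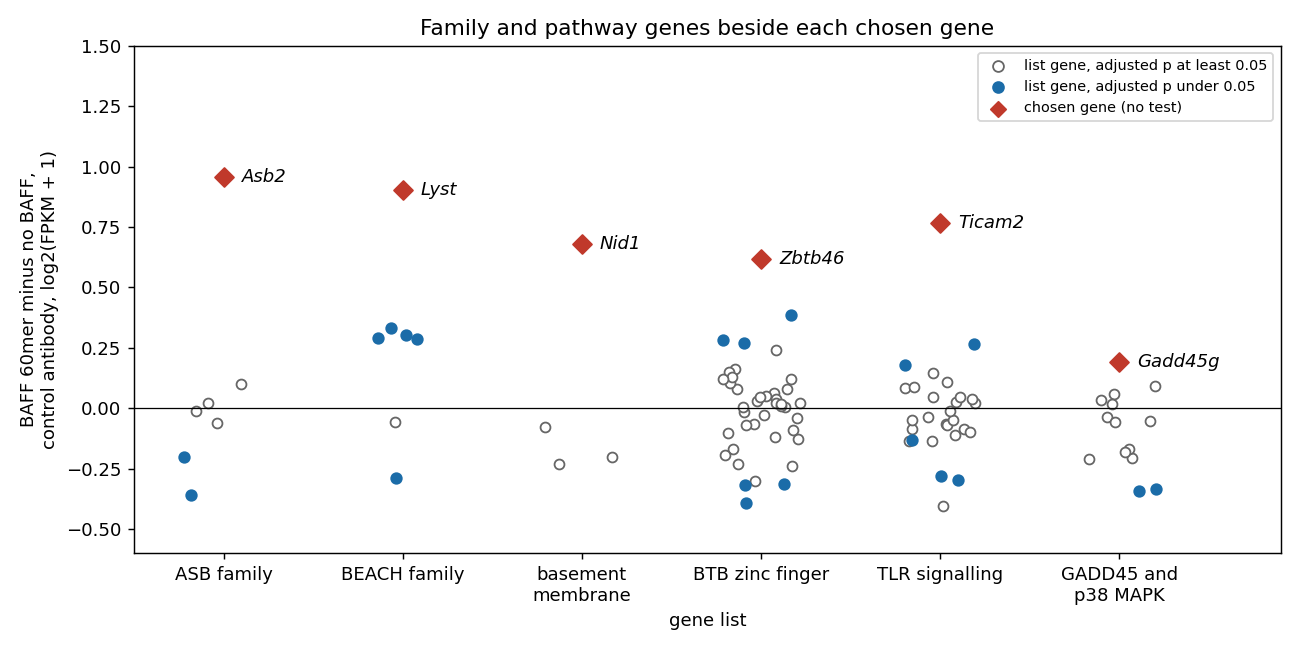
Difference of log2(FPKM + 1) between BAFF 60mer and no BAFF under control antibody (y axis) for the tested genes of 6 family or pathway lists (x axis). Circles are list genes, filled where the limma adjusted p was under 0.05, and diamonds are the chosen genes. Asb2, Lyst, Nid1, Zbtb46 and Ticam2 lie above every other gene of their list, but the diamonds were chosen for large rises.

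Genes of the NF-kB pathway were set beside the 7 genes in the same libraries. Of 21 tested, 6 rose and 0 fell with BAFF 60mer against no BAFF under control antibody (Nfkb2, Nfkbia, Nfkbie, Birc3, Traf1 and Traf3), and 5 rose and 0 fell under mBaffR-mFc, with medians of 0.12 and 0.15. Beside these counts, 5.04% of all tested genes rose under control antibody and 1.46% under mBaffR-mFc. Birc3, an inhibitor of apoptosis and target of NF-kB, went from 329 ± 1.54 to 418 ± 1.25 FPKM under control antibody, a log2 difference of 0.35 ± 0.036. The log2 differences of Asb2, Lyst, Nav2, Nid1, Zbtb46 and Ticam2 were larger than that of Birc3, at levels that were much lower. Those genes were chosen for large rises and Birc3 was not, so this order is no separate result.

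The connective tissue transcripts allowed a comparison within the BAFF 3mer libraries with control antibody, of which 2 carried them and 1 did not. Levels in the 2 carrying libraries and the other were 1.95 and 2.28 FPKM for Asb2, 12.7 and 11.3 FPKM for Lyst, 1.46 and 1.41 FPKM for Nav2, 3.65 and 4.41 FPKM for Nid1, 10.6 and 9.27 FPKM for Zbtb46, 3.40 and 3.82 FPKM for Ticam2 and 6.14 and 6.29 FPKM for Gadd45g (mean of 2 libraries, then 1 library). Each carrying BAFF 3mer library was closer to the libraries without BAFF than to BAFF 60mer for Asb2, Lyst, Nid1, Zbtb46 and Ticam2. The 2 reached above the 10 libraries without these transcripts for Lyst (13.2 against at most 13.1 FPKM) and Zbtb46 (11.03 against at most 10.9 FPKM). They reached below them for Asb2 (1.66 against at least 1.94 FPKM) and lay within their range for the other genes. The part of the connective tissue transcripts in these levels was not tested. Among carrying libraries alone, the log2 difference between BAFF 60mer and BAFF 3mer was 1.08 for Asb2, 0.65 for Lyst, 0.70 for Nav2, 0.72 for Nid1, 0.54 for Zbtb46, 0.63 for Ticam2 and 0.24 for Gadd45g. Without the 2 carrying BAFF 3mer libraries it was 0.92, 0.81, 0.73, 0.50, 0.71, 0.49 and 0.21 in the same order, which leaves 1 library with BAFF 3mer.

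**Figure D5:**
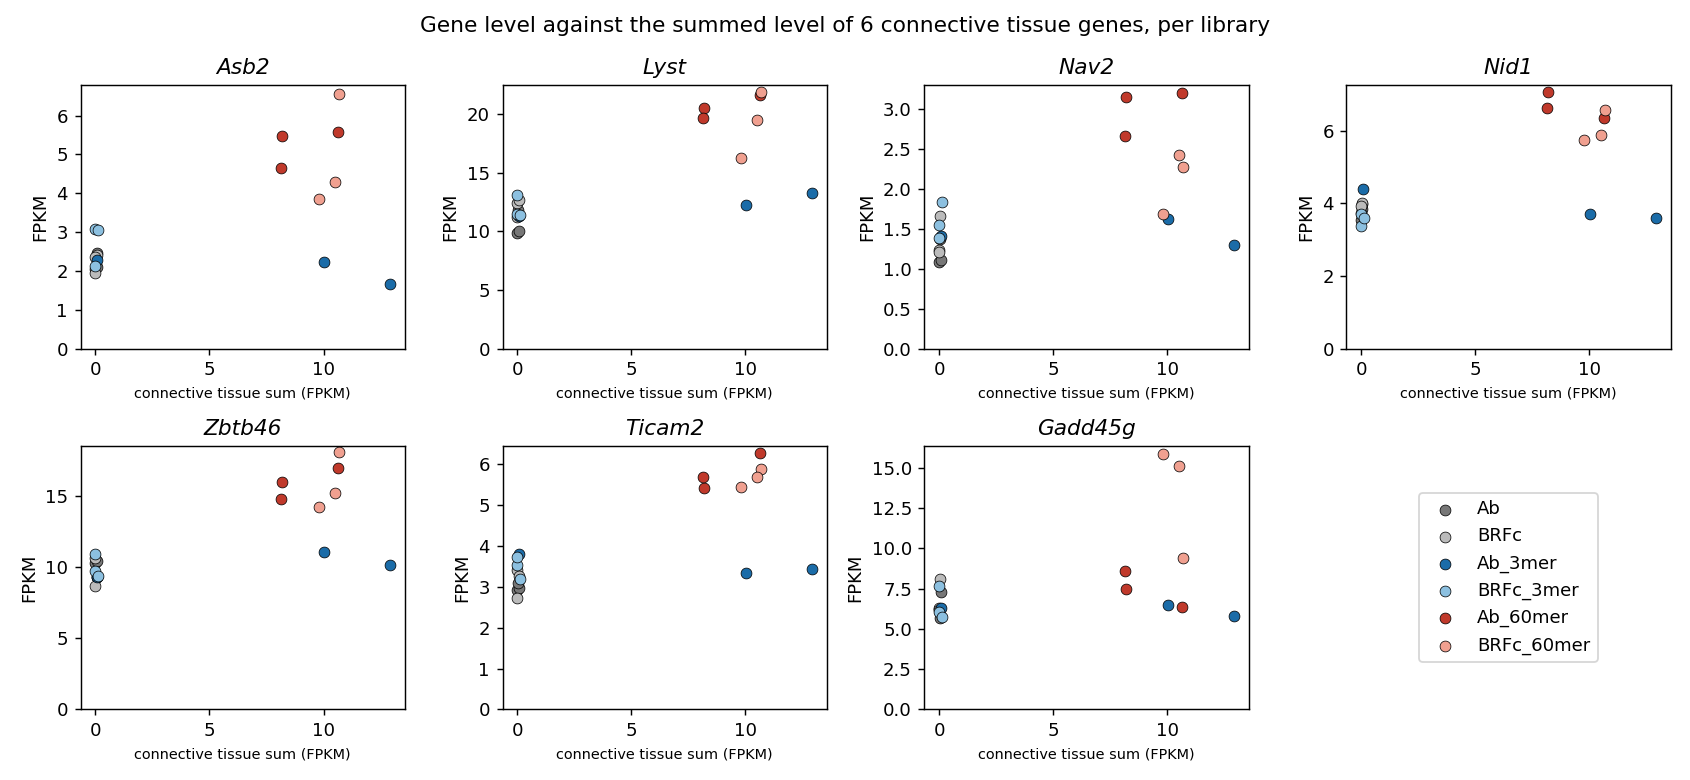
Level of each gene in FPKM (y axis) against the summed FPKM of the 6 connective tissue genes in the same library (x axis), coloured by group (Ab, control antibody; BRFc, mBaffR-mFc). The 2 BAFF 3mer libraries at 10.01 and 12.9 FPKM on the x axis lie with or near the libraries without BAFF in every panel, below the BAFF 60mer libraries of Asb2, Lyst, Nid1, Zbtb46 and Ticam2.

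For each of the 7 genes, the 3 named genes with the most similar pattern over 18 libraries were listed. Asb2 was most like Creb1 (Pearson r of log2(FPKM + 1) 0.93), Birc3 (0.91) and Kynu (0.91), and Nid1 was most like Rapgef1 (0.97), Kynu (0.96) and Ksr1 (0.96). Lyst was most like Rapgef6 (0.98), Hivep1 (0.97) and Pikfyve (0.96), Zbtb46 like Fam160a1 (0.97), Hivep1 (0.96) and Syngr2 (0.96), and Ticam2 like Fchsd2 (0.95), Kynu (0.94) and Hivep1 (0.94). Nav2 was most like Usp50 (0.93), Lpp (0.91) and Pikfyve (0.90). Gadd45g was most like Il4i1 (0.87), a secreted enzyme that oxidises amino acids, Actr3 (0.84) and Csrp1 (0.83). Il4i1 averaged 211 FPKM with control antibody and BAFF 60mer and 295 FPKM with mBaffR-mFc and BAFF 60mer, beside 142 to 160 FPKM in the 4 other groups, so its order of groups at the top was that of Gadd45g. These correlations are descriptions without a test.

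Compared per length, the mean level without BAFF was 11.3 FPKM for Lyst, 9.77 for Zbtb46, 6.63 for Gadd45g, 3.84 for Nid1, 3.07 for Ticam2, 2.22 for Asb2 and 1.28 for Nav2. Lyst and Zbtb46 stood at the 38.6 and 35.1 percentiles of the 11646 tested genes and Nav2 at the 4.10 percentile, so all 7 were below the middle of the range. The length that turned the FPKM of Nav2 into whole fragments was 3635 bases, while its annotated exons cover 32228 bases in 18 transcripts, so the level of Nav2 relative to other genes depends on the transcript length that was used. Ratios of FPKM between libraries of the same gene do not depend on that length. The difference of log2(FPKM + 1), its rank and the minimum mean of 1 FPKM do.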

How the data were processed

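Per the labels' protocols, RNA was extracted with a column kit that included DNase treatment, and a sequencing company sequenced it and computed FPKM for the authors. The deposited table holds FPKM per Ensembl gene ID and library. Aligner, counting tool, strand setting and genome build are not given in the sources used here. Of 35275 IDs, 34490 matched GENCODE M21 (GRCm38), the source of symbols and positions.

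Library totals and fragments per gene were recovered from the steps between low FPKM values; of the values under 500 fragments, 88.5% were whole numbers (tolerance 0.1). The test used limma 3.58.1 in R 4.3.3 on log2(FPKM + 1), with 1 fit over the 6 groups, a trend in the variance, a minimum mean of 1 FPKM and Benjamini-Hochberg adjustment over 11646 genes. Fold differences on that scale understate those of low genes. The code was tested on simulated data. Intervals on fragments cover counting error only.

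The genes, the gene lists and the motifs were chosen with earlier results of these data known. Named besides the 7 genes were up to 4 list genes with the smallest p under control antibody (others only where a count is itemised), the 3 genes with the highest correlation per chosen gene, and tested or overlapping genes within 200 kb. Libraries are numbered 1 to 3 in order of deposition, since the labels give no numbers, and no fit used that number. For the 7 genes, the comparison of pretreatments with BAFF 60mer was planned as a test but is only described, because its libraries chose them.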

Additional observations from a re-analysis of the deposited data

How the results depend on the processing

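Counts of genes passing depended on the fit. With only the groups compared, BAFF 60mer against no BAFF called 1053 genes under control antibody (1628 in the shared fit) and 139 under mBaffR-mFc (563), and against BAFF 3mer 252 (560) and 287 (601). With the connective tissue transcripts as a term, which only the BAFF 3mer libraries with control antibody can estimate, these counts were 16, 10, 246 and 15. Without the 2 BAFF 3mer libraries that carry them, an alternative chosen after seeing the data, BAFF 60mer against BAFF 3mer under control antibody called 112. Leaving out 1 library at a time gave 756 to 1668, 242 to 731, 246 to 471 and 233 to 543. BAFF 3mer against no BAFF called 0 genes, 1 without the filter on low values (Gm28900), 1 with the term or without the 2 libraries (Gm47283), and 0 to 2 with 1 library left out. Between pretreatments, counts were 0 (0 to 1 with 1 library left out) without BAFF. With BAFF 3mer they were 0, 1 without the filter (Gm28900), 2 with only those groups (Igkv12-44 and Igkv10-96), 1 with the term or without the 2 libraries (Gm47283) and 0 to 1 with 1 library left out. With BAFF 60mer they were 3, 0 with only those groups and 1 to 6 with 1 library left out.

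Of 407 alternative values for the described differences of the 7 genes, 29 moved by over 1 SD and 7 changed sign, all 7 in comparisons of pretreatments with BAFF 60mer. The 407 include fits with another filter on low values or with only the groups compared. Those fits change the SE but leave the difference as it was, so their values could not move. The term gave, against no BAFF under control antibody, 1.12 for Asb2, 0.74 for Lyst, 0.84 for Nav2, 0.90 for Nid1, 0.44 for Zbtb46, 0.90 for Ticam2 and 0.22 for Gadd45g. Of 296 alternative values in the comparisons that were tested, 0 passed (limma, adjusted p; 21 had an unadjusted p under 0.05) and 21 changed sign. Here a fit with another filter or with only the groups compared could change the p-value but not the sign. With the term or without the 2 libraries, BAFF 3mer against no BAFF was 0.038 for Nid1 and -0.017 for Zbtb46, and the pretreatment difference with BAFF 3mer was 0.077 for Lyst and 0.095 for Zbtb46. The remaining sign changes came from leaving out 1 library. Without BAFF the pretreatment differences then ran from -0.025 to 0.081 for Asb2, from -0.027 to 0.17 for Gadd45g and from -0.0094 to 0.057 for Nid1. With BAFF 3mer they ran from -0.063 to 0.12 for Gadd45g, from -0.087 to 0.024 for Lyst, from -0.054 to 0.032 for Ticam2 and from -0.079 to 0.036 for Zbtb46. With BAFF 60mer they ran from -0.30 to 0.024 for Asb2, from -0.20 to 0.0058 for Lyst, from -0.064 to 0.026 for Ticam2 and from -0.10 to 0.060 for Zbtb46.

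No paired analysis was possible because the labels give no replicate numbers; a tie between libraries of the same deposition number was not fitted. At a minimum mean of 5 FPKM, Asb2, Nav2, Nid1 and Ticam2 were not tested. Genes with 61 to 204 fragments per library, such as Asb2, carry counting errors of up to 12.8%, which limits how small a difference can be seen.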
